A study of Mus musculus with 4 samples.

Results

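The 8 genes described here are the lectican proteoglycans and the hyaluronan and proteoglycan link proteins of the mouse, which lie in 4 pairs, each of 1 lectican gene and 1 link protein gene on the same chromosome. The pairs are Acan with Hapln3, Vcan with Hapln1, Bcan with Hapln2 and Ncan with Hapln4. The genes were taken by name, as 8 of the 21757 protein-coding genes of the annotation. All H3K27ac peak intervals in a member's gene body or within 100 kb of its annotated start were collected from 4 peak lists. These windows held 69 of 40899 intervals in limb EGFP+ cells, 35 of 34360 in limb EGFP− cells, 64 of 36231 in trunk EGFP+ cells and 35 of 30716 in trunk EGFP− cells.

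Lecticans are large chondroitin sulfate proteoglycans with a hyaluronan-binding domain at one end and a lectin-like domain at the other. Link proteins bind both hyaluronan and the lectican and hold the complex together. Aggrecan, encoded by Acan, gives cartilage its resistance to compression, and it is joined to hyaluronan there by the link protein encoded by Hapln1. Versican, encoded by Vcan, is found in many embryonic connective tissues and in precartilage mesenchyme, whereas brevican (Bcan) and neurocan (Ncan) are known mainly from the nervous system, as are the products of Hapln2 and Hapln4. Hapln3 is expressed more widely. H3K27ac is an acetylation of histone H3 that marks active promoters and enhancers.

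The data are from E14.5 fetuses that carried Col2a1-EGFP, a reporter cassette with a minimal promoter and EGFP placed upstream of Col2a1, the gene for the main collagen of cartilage. All 4 groups carried it. The cassette was homozygous in an embryonic stem cell clone of G4 background, and the fetuses were made from these cells by tetraploid aggregation. Cells of the limbs (fore and hind, from the upper segment to the autopod) and of the trunk (neck to tail, internal organs removed) were sorted by flow cytometry into EGFP+ and EGFP− cells. EGFP therefore reports activity at Col2a1, and the EGFP− fraction is every other cell of the same tissue. There was 1 library for each of the 4 populations, so the values have no replicate error and no test was made between populations. Intervals given below are exact 95% intervals for counting error only. Limb and trunk also differ in the sequencing lane named in their labels, and an effect of the lane cannot be told apart from one of the tissue. The peak names of the trunk EGFP− list carry another replicate number than its sample label, and the sample label was used.

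The authors sampled the same number of reads from each library. A summit is the highest point of a peak, and its read count is the number of reads, each extended to 200 bp, that cover it. Its local background is the number of reads that MACS2, the peak caller, set as the level around it in the same library. The fold over background is MACS2's, with 1 read added to both the summit and the background. Broad signal raises this background, and a place without a called peak can still hold signal. The median interval had 24 to 26 reads and the weakest had 7 or 8. All 9 chondrocyte markers (Col2a1, Sox9, Sox5, Sox6, Matn1, Matn3, Col9a1, Col11a1 and Comp) had a peak in a promoter window, defined below, in both EGFP+ lists. In limb EGFP− cells 4 had one, and in trunk EGFP− cells 3. Of all protein-coding genes, 54.0% had one in limb EGFP+, 51.2% in limb EGFP−, 52.2% in trunk EGFP+ and 52.2% in trunk EGFP− cells. In both EGFP+ lists and neither EGFP− list 1.44% had one. Col2a1 is the gene the sort itself used. Of the markers of other cells, muscle had 1 of 5 in limb EGFP+ cells and 0 in the other lists, and skin epithelium and endothelium each had 0 of 4 in every list. Connective tissue markers had 2, 3, 1 and 3 of 5 in limb EGFP+, limb EGFP−, trunk EGFP+ and trunk EGFP− cells, and neural and glial markers had 3, 1, 2 and 2 of 10, with Isl1 in both EGFP+ lists and neither EGFP− list.

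Acan was the only member whose promoter window held a peak in both EGFP+ lists and in neither EGFP− list. This is 1 of 8 members, beside 314 of 21757 protein-coding genes (1.44%). A promoter window began 2 kb before a coding transcript start and ended 500 bp after it. At the Acan start (ENSMUSG00000030607, chr7:78702964-78764847, plus strand, GRCm39) the strongest summit had 70 reads in limb EGFP+ cells (54.6 to 88.4), over a background of 19.2, and 53 reads in trunk EGFP+ cells (39.7 to 69.3), over a background of 15.0. No peak was called there in limb EGFP− or trunk EGFP− cells. The summits lay 0.400 kb and 0.470 kb downstream of the start. Both EGFP+ backgrounds were above the median background of their library, which was 4.96 and 5.22 reads, and the fold over background, with 1 read added to both, was 3.52 and 3.38. When intervals needed a fold of at least 4, the count fell to 0.

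Hapln1, the cartilage link protein gene, had a promoter peak in all 4 lists, as did 47.1% of all genes, but with unequal reads. Its strongest summit (ENSMUSG00000021613, chr13:89686581-89759950, plus strand) had 85 reads in limb EGFP+ (67.9 to 105), 17 in limb EGFP− (9.9 to 27.2), 61 in trunk EGFP+ (46.7 to 78.4) and 17 in trunk EGFP− cells (9.9 to 27.2). In each tissue the counting intervals of the EGFP+ and EGFP− fractions did not overlap. How many other genes with a promoter peak in all 4 lists show this was not counted. The local background was also unequal, at 23.8, 3.26, 17.1 and 2.86 reads in the same order, and the folds over background, with the added read, were 3.46, 4.23, 3.42 and 4.66. The EGFP− lists thus had fewer reads at the summit, and a higher fold over a lower background, than the EGFP+ lists. The EGFP+ summits lay 1.09 kb (limb) and 0.873 kb (trunk) downstream of the annotated gene start, just before an internal coding start. In trunk EGFP+ cells alone a further promoter interval was called at another internal start, at chr13:89732505-89732963.

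Vcan (ENSMUSG00000021614, chr13:89803431-89890814, minus strand) had a promoter peak in all 4 lists with more even reads. The strongest summit had 80 reads in limb EGFP+ (63.4 to 99.6), 54 in limb EGFP− (40.6 to 70.5), 70 in trunk EGFP+ (54.6 to 88.4) and 49 in trunk EGFP− cells (36.3 to 64.8). EGFP+ was the higher value in both tissues, and in both the counting intervals overlapped. In each tissue, however, the strongest summits of the 2 fractions were in different peaks, which did not overlap. In EGFP+ cells they lay 2.48 kb (limb) and 3.08 kb (trunk) inside the gene. In EGFP− cells they lay 1.67 kb (limb) and 1.20 kb (trunk) inside it. The peaks covered 2760, 2475, 1960 and 2268 bp in the same order. The summits lay 1.20 to 3.08 kb inside the gene, around an internal coding start, and with a promoter window at the annotated gene start alone neither Vcan nor Hapln1 had a peak in every list.

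The other 5 members had no promoter peak in any list, as was the case for 41.7% of all genes. They were Hapln3 (ENSMUSG00000030606, chr7:78764850-78780956, minus strand), Bcan (ENSMUSG00000004892, chr3:87894835-87910177, minus strand), Hapln2 (ENSMUSG00000004894, chr3:87926800-87934890, minus strand), Ncan (ENSMUSG00000002341, chr8:70538926-70573523, minus strand) and Hapln4 (ENSMUSG00000007594, chr8:70536106-70543533, plus strand). The 3 members with a promoter peak were thus the lecticans Acan and Vcan and the link protein gene Hapln1.

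**Figure D1:**
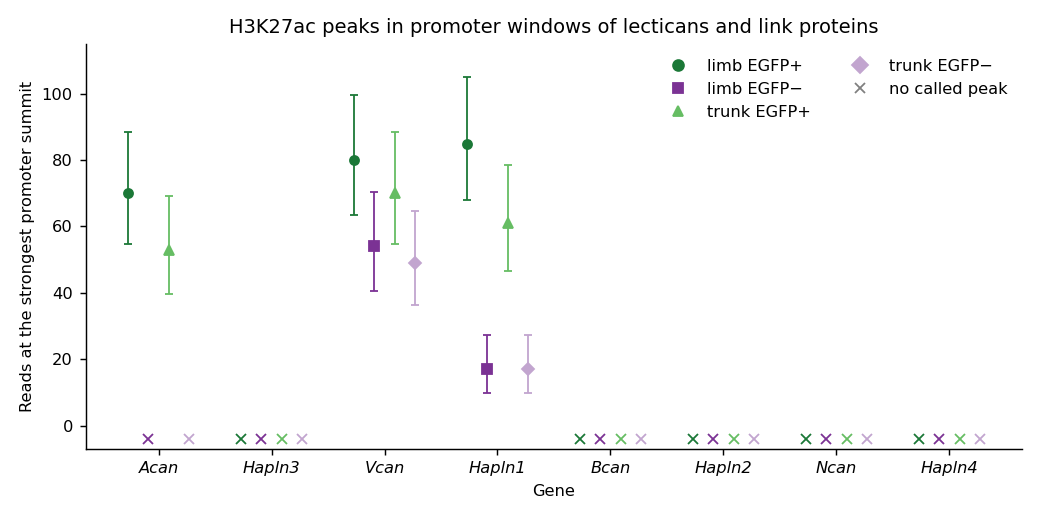
Reads at the strongest H3K27ac summit in each member's promoter windows (y axis, reads) in the 4 lists, with exact 95% Poisson intervals as bars and crosses where no peak was called. Acan has points in the EGFP+ lists alone, Hapln1 has 85 and 61 reads in EGFP+ cells against 17 in each EGFP− list, and Vcan has points in all 4.

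Distal intervals, those outside every promoter window, separated the 4 loci further. Overlapping distal intervals of the 4 lists were merged into regions. A region was EGFP+-only where it held an interval of at least 1 EGFP+ list and of no EGFP− list, and EGFP−-only where the reverse held. Over the whole genome 46.2% of 43885 regions were EGFP+-only, 31.0% were EGFP−-only and 22.8% had intervals of both fractions. The 4 loci together held 54 regions, of which 37 were EGFP+-only (68.5%, 54.4 to 80.5), 6 were EGFP−-only and 11 were in both. EGFP+-only regions were 20 of 23 around Acan and Hapln3 (87.0%, 66.4 to 97.2), 12 of 14 around Vcan and Hapln1 (85.7%, 57.2 to 98.2), 3 of 10 around Bcan and Hapln2 (6.67 to 65.2%) and 2 of 7 around Ncan and Hapln4 (3.67 to 71.0%). The intervals of the first and second locus lay above the genome share, and those of the other two included it. Around Vcan and Hapln1 this did not hold with stronger peaks alone, since 4 of 5 regions (28.4 to 99.5%) were EGFP+-only with a −log10 q of at least 5 and also with a fold of at least 4, and 3 of 4 (19.4 to 99.4%) with the top 20000 intervals per list. It also did not hold there in a window of 50 kb, with 8 of 10 (44.4 to 97.5%). Around Acan and Hapln3 it did not hold when intervals within 500 bp were joined, with 11 of 15 (44.9 to 92.2%), and regions that lie next to each other are not independent. All these shares were set beside the 46.2% of the main setting. The genome share was not counted again under the other settings and may differ there.

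**Figure D2:**
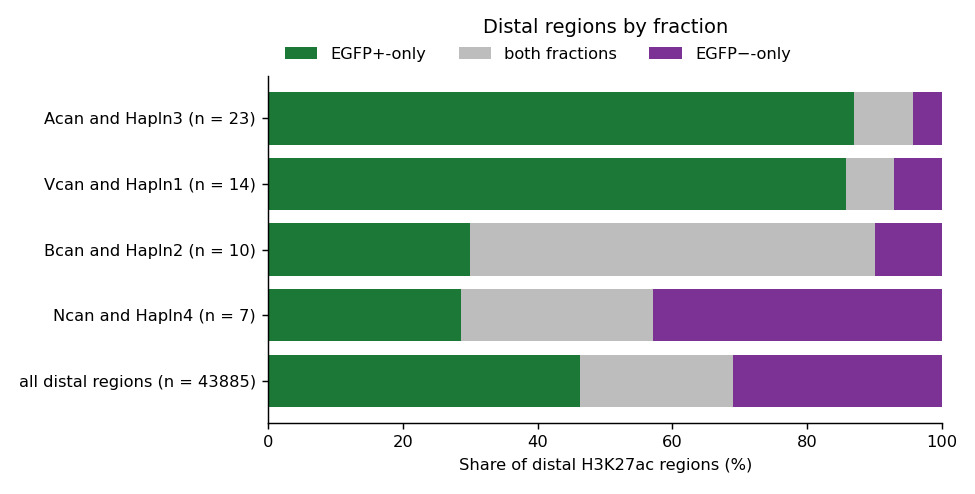
Share of distal H3K27ac regions (x axis, percent) that are EGFP+-only, in both fractions or EGFP−-only, for each paired locus and for all 43885 distal regions. The Acan and Hapln3 locus (87.0%) and the Vcan and Hapln1 locus (85.7%) have larger EGFP+-only shares than the genome (46.2%), and the other loci have 3 of 10 and 2 of 7.

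Acan and Hapln3 lie tail to tail, with their annotated 3′ ends 2 bp apart and their starts 78.0 kb apart, so their windows share 122 kb. The locus held 25 intervals in limb EGFP+ cells and 26 in trunk EGFP+ cells, against 4 in limb EGFP− and 1 in trunk EGFP− cells. Of the distal ones, 18 of 21 in limb EGFP+ cells had no overlapping interval in limb EGFP− cells (85.7%, 63.7 to 97.0), beside 68.5% of all distal intervals of that list. In trunk EGFP+ cells all 21 of 21 had none in trunk EGFP− cells (100%, 83.9 to 100), beside 69.1%. The limb interval includes the share over all distal intervals of its list, and the trunk interval lies above that of its list. The trunk EGFP− list had 0 distal intervals in the locus, and its only interval was at the promoter of Mfge8, the neighbouring gene for a secreted glycoprotein. The Mfge8 promoter had a peak in all 4 lists, with 41, 18, 33 and 45 reads in limb EGFP+, limb EGFP−, trunk EGFP+ and trunk EGFP− cells.

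The 20 EGFP+-only regions were mostly on the Acan side. Of the 23 regions of the locus, 14 were intergenic, 6 were in introns of Acan, 2 were in Hapln3 and 1 was in an intron of Mfge8. All 6 in Acan introns were EGFP+-only, with summits 0.926 to 27.3 kb downstream of the Acan start. Of the 20, 14 had intervals in both EGFP+ lists, 4 in limb EGFP+ alone and 2 in trunk EGFP+ alone. Over the genome 23.3% of EGFP+-only regions were found in both tissues. In the 14 found in both, limb had more reads at 10, trunk at 3 and both the same at 1. The limb and trunk counting intervals overlapped at all 14. Neither was counted over the genome, so these counts are not shown to be particular to this locus. The limb EGFP+ list was also the longer, with 40899 intervals against 36231 in trunk EGFP+ cells.

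The strongest EGFP+-only region of the locus was at chr7:78621928-78623050, 80.8 kb upstream of the Acan start. It had 70 reads in limb EGFP+ cells (54.6 to 88.4, background 12.7) and 61 in trunk EGFP+ cells (46.7 to 78.4, background 13.2). A neighbour at chr7:78620988-78621760, 81.4 kb upstream, had 56 reads in limb EGFP+ and 57 in trunk EGFP+ cells, so the pair had nearly the same reads in limb and trunk. Nearer to the gene, a region 31.3 kb upstream (chr7:78671427-78672094) had 55 reads in limb EGFP+ and 40 in trunk EGFP+ cells, and a region 9.55 kb upstream (chr7:78692698-78693742) had 50 and 29. Within Acan, an intronic region 26.8 kb from the start (chr7:78729062-78729953) had 27 reads in limb EGFP+ and 44 in trunk EGFP+ cells, the reverse order, and the next, 27.3 kb from the start (chr7:78730043-78730748), had 32 in each. None of these 6 regions had a called interval in either EGFP− list.

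In 2 regions upstream of Acan limb EGFP− cells also had a peak. The region 62.4 kb upstream (chr7:78639633-78641168) had the highest −log10 p of the distal regions of the locus, 31.5. It had 69 reads in limb EGFP+ cells (53.7 to 87.3), 9 in limb EGFP− cells (4.12 to 17.1) and 43 in trunk EGFP+ cells (31.1 to 57.9). The limb EGFP− peak was called over a background of 1.63 reads, the lowest of that library, whereas the limb EGFP+ summit stood over 11.2. The other, 99.5 kb upstream at the edge of the window, had 55 reads in limb EGFP+, 15 in limb EGFP− and 30 in trunk EGFP+ cells. At both, limb EGFP− had the fewest reads of the lists with a peak, and its counting interval did not overlap that of limb EGFP+. How often this occurs over the genome was not counted.

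The sequences of 5 of these regions are shown. Those 62.4 and 80.8 kb upstream had the highest −log10 p of the locus, and the others were chosen because they hold SOX half-site letters. The regions 9.55 and 99.5 kb upstream and 26.8 kb inside Acan had a higher −log10 p than some of those shown. They held no half-site letters and were left out, so the printed set does not show how frequent half-sites are. Each run is 300 bases of GRCm39, plus strand, centred on the summit of the strongest EGFP+ interval, at chr7:78621406-78621705, chr7:78621978-78622277, chr7:78640435-78640734, chr7:78671470-78671769 and chr7:78730137-78730436 in this order. Capitals mark SOX half-sites (ACAAAG or ACAATG on either strand) and, in the first, 2 half-sites that face each other.
Acan upstream 81.4 kb: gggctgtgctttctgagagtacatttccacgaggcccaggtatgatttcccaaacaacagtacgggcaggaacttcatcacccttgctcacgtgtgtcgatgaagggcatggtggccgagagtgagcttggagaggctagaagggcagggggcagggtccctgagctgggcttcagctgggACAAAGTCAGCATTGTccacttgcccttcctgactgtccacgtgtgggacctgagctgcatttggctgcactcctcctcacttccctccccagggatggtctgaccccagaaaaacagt
Acan upstream 80.8 kb: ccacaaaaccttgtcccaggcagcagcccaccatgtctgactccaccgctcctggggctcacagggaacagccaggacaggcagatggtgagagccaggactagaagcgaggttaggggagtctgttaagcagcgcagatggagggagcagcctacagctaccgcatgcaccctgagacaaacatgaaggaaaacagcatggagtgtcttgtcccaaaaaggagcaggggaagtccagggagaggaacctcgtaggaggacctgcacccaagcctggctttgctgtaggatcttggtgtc
Acan upstream 62.4 kb: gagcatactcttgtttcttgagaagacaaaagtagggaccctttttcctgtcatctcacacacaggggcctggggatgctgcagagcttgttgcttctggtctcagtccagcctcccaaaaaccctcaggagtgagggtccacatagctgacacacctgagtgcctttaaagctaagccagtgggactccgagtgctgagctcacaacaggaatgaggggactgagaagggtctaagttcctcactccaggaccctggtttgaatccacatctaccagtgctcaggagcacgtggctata
Acan upstream 31.3 kb: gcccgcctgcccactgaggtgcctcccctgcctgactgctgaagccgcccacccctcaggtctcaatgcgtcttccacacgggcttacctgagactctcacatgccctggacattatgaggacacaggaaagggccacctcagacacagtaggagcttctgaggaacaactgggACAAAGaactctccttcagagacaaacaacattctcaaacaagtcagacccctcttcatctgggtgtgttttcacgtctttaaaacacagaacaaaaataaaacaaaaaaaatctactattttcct
Acan intron 27.3 kb: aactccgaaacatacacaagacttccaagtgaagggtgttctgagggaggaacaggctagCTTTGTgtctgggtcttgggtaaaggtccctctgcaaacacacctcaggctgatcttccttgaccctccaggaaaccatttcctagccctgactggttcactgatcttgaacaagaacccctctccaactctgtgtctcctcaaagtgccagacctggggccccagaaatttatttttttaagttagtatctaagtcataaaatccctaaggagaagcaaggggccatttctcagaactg

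SOX9, with SOX5 and SOX6, is the main transcription factor of chondrocytes, and SOX proteins bind half-sites of these letters, in cartilage genes often as facing pairs. A facing pair was searched as CAAAG or CAATG, then 3 to 5 bases, then CTTTG or CATTG. Among the 37 EGFP+-only regions of the loci it occurred in the region 81.4 kb upstream of Acan and in no other, beside 0.813% of 20285 EGFP+-only regions of the genome and 0.718% of all 43885. A half-site was present in 20 of the 37 (54.1%), beside 34.4% of EGFP+-only, 39.0% of EGFP−-only and 35.1% of all regions. By locus this was 9 of 20 around Acan and Hapln3 and 9 of 12 around Vcan and Hapln1. The region 80.8 kb upstream of Acan and the one 62.4 kb upstream, the strongest by −log10 p, had none in these 300 bases. FOX letters (GTAAACA or ATAAACA) were in 3 of the 37, beside 10.4% of EGFP+-only regions, and MEF2 letters (CTA, then 4 bases of any kind, then TAG) in 1, beside 4.59%. The half-site has 1 outer letter more than each member of a facing pair, so a pair can but need not count as half-sites. All motifs were searched on both strands, and a match in letters is not a bound site.

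**Figure D3:**
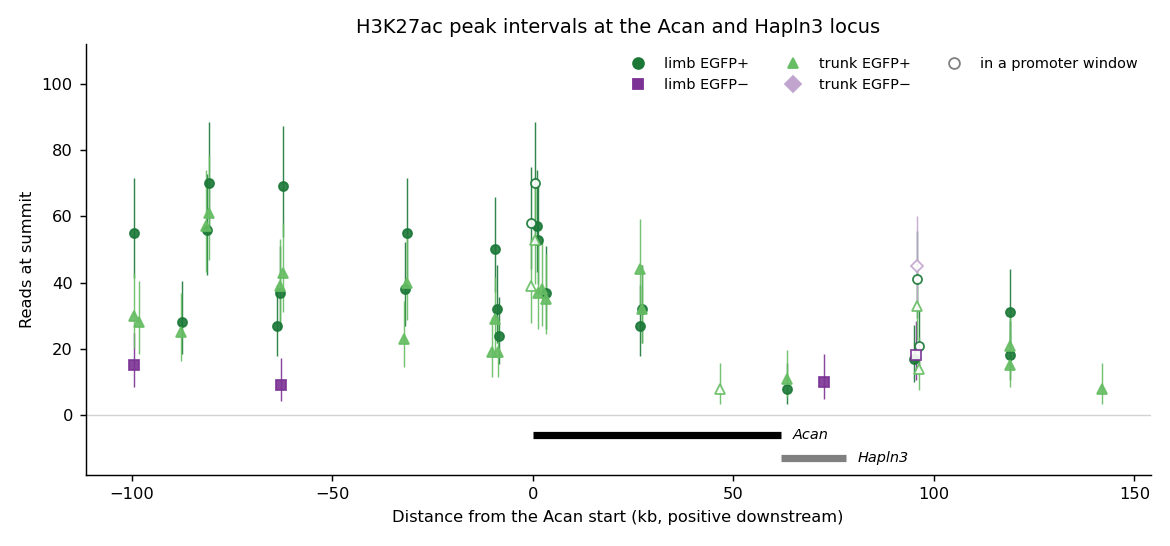
Reads at the summit (y axis, with exact 95% Poisson intervals) of each H3K27ac interval of the Acan and Hapln3 locus against distance from the Acan start (x axis, kb), with open symbols for intervals in a promoter window and bars for the gene bodies. Circles and triangles of limb and trunk EGFP+ cells fill the 100 kb upstream of Acan and its 5′ introns, and limb EGFP− cells have 3 distal points with 9, 10 and 15 reads.

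Hapln3, the other gene of this pair, had few intervals of its own. Within its body 1 region was EGFP+-only (chr7:78766152-78766429, exonic, 8 reads in limb EGFP+ and 11 in trunk EGFP+ cells) and 1 was the only EGFP−-only region of the locus (chr7:78775435-78775634, intronic, 10 reads in limb EGFP− cells). These values are close to the 7 or 8 reads of the weakest called intervals. Upstream of Hapln3, a region 40.6 kb from its start (chr7:78821078-78821732) had 31 reads in limb EGFP+ and 21 in trunk EGFP+ cells, and its neighbour 41.2 kb away had 18 and 15. The stronger regions of the locus thus lay upstream of Acan and in its introns, and beyond Hapln3 the highest reads were lower. By interval, 14 of 25 in limb EGFP+ cells (56.0%), 2 of 4 in limb EGFP−, 14 of 26 in trunk EGFP+ (53.8%) and 1 of 1 in trunk EGFP− cells lay in the windows of both genes. Of those shared, 10, 1, 9 and 0 were distal, and the rest were at the promoters of Acan and Mfge8. By region, 12 of 23 were shared, 11 of them EGFP+-only.

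Counted per gene, Acan had 17 EGFP+-only regions in its window and Hapln3 had 14. The median protein-coding gene had 1, and 62.0% of genes had at least 1. As many as Acan were found at 60 genes (0.276%) and as many as Hapln3 at 139 genes (0.639%), where neighbouring genes share regions as these do. The regions stood close together, with 10 pairs of neighbours within 1 kb, and joining intervals within 500 bp left 11 EGFP+-only regions at the locus. In limb EGFP+ cells 18 of 21 distal intervals, and in trunk EGFP+ cells 18 of 21, had more reads than the median distal interval of their list, 18 reads in each. Their local background was high too, with a median of 9.86 reads in limb EGFP+ and 7.78 in trunk EGFP+ cells. Over all intervals of these lists the median background was 4.96 and 5.22 reads, so the reads alone do not give the strength over background.

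Hapln1 and Vcan face each other with their 3′ ends 43480 bp apart and their starts 204 kb apart. Their 100 kb windows did not meet, so no interval was shared by this pair. The locus held 15 intervals in limb EGFP+, 4 in limb EGFP−, 10 in trunk EGFP+ and 5 in trunk EGFP− cells, of which 11, 1, 5 and 1 were distal. Of the distal ones, 10 of 11 in limb EGFP+ cells (90.9%, 58.7 to 99.8) and 5 of 5 in trunk EGFP+ cells (100%, 47.8 to 100) had no interval of the opposite fraction of their tissue. Both intervals include the share over all distal intervals of the list, 68.5% and 69.1%. Of the 12 EGFP+-only regions, 4 were found in both tissues, 6 in limb alone and 2 in trunk alone.

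Most of the signal near Hapln1 was next to its start. A region 2.37 kb inside the gene (chr13:89688729-89689833), over an annotated exon, had 84 reads in limb EGFP+ cells (67.0 to 104) and 56 in trunk EGFP+ cells (42.3 to 72.7), where it reached into a promoter window. A region 4.15 kb inside (chr13:89690522-89690849) had 62 reads in limb EGFP+ cells. Upstream, regions at 17.5 kb (chr13:89668822-89669487) and 16.5 kb (chr13:89669670-89670558) had 24 and 28 reads in limb EGFP+ and 18 and 16 in trunk EGFP+ cells. All 4 were without a peak in EGFP− cells. Hapln1 had 8 EGFP+-only regions in its window, a number reached by 949 genes (4.36%). Its single EGFP−-only region, 64.9 kb inside the gene (chr13:89751370-89751652), had 11 reads in trunk EGFP− cells.

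Vcan had 4 EGFP+-only regions in its window, a number reached by 19.5% of genes, and all 4 were in limb EGFP+ cells alone. They had 13 to 19 reads, with the highest in an intron 41.6 kb from the Vcan start (chr13:89848947-89849311). In another intron, 34.5 kb from the start (chr13:89856149-89856472), limb EGFP− cells had more reads than limb EGFP+ cells, 22 against 13, and the trunk lists had no peak. The distal intervals of the Vcan and Hapln1 locus had fewer reads than those at Acan, with 5 of 11 in limb EGFP+ and 0 of 5 in trunk EGFP+ cells above the median reads of their list. Their median local background was also lower, at 4.02 reads in limb EGFP+ and 3.5 in trunk EGFP+ cells.

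The Hapln1 region 17.5 kb upstream and the Vcan intronic region at 41.6 kb are shown as examples, 1 from each gene's window, of the regions with a SOX half-site (capitals) near the summit, in 300 bases of the plus strand of GRCm39, at chr13:89668882-89669181 and chr13:89849031-89849330.
Hapln1 upstream 17.5 kb: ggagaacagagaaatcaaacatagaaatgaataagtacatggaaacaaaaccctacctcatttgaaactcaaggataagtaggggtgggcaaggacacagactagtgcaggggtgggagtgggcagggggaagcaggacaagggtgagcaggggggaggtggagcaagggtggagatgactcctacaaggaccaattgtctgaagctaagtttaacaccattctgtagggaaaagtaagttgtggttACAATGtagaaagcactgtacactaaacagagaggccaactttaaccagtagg
Vcan intron 41.6 kb: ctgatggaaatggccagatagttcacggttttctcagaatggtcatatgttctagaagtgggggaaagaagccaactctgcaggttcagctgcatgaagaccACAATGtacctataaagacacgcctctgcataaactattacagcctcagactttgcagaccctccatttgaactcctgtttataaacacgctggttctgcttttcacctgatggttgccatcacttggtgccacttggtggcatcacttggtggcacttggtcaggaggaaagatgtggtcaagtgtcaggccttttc

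**Figure D4:**
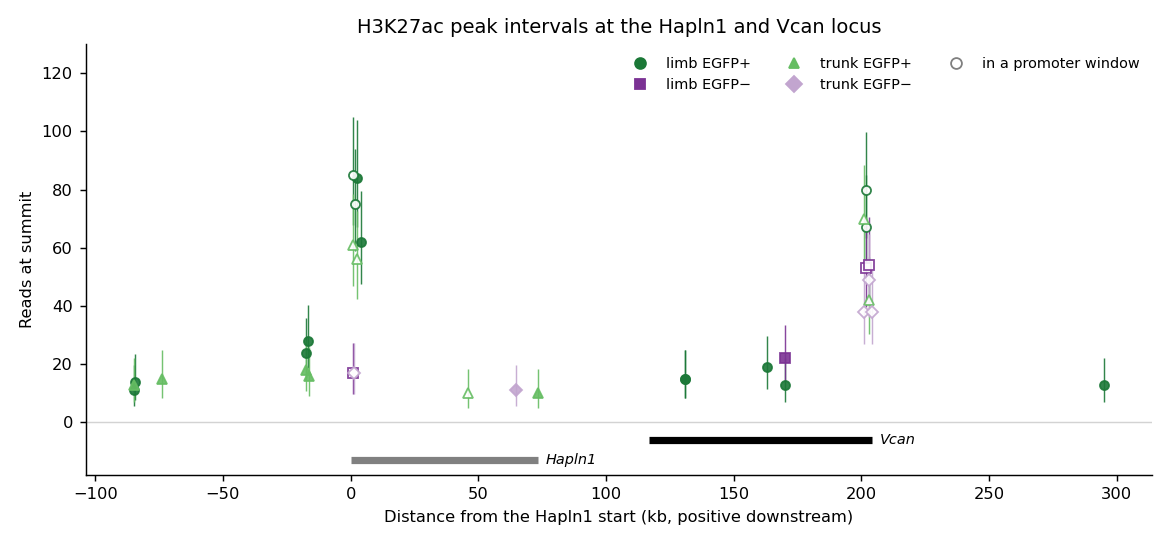
Reads at the summit (y axis, with exact 95% Poisson intervals) of each H3K27ac interval of the Hapln1 and Vcan locus against distance from the Hapln1 start (x axis, kb), with open symbols for intervals in a promoter window. EGFP+ reads reach 85 a short way inside Hapln1, where EGFP− cells have 17, while a short way inside Vcan all 4 lists have points.

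Bcan and Hapln2 lie on the same strand, 16622 bp apart, among 9 other protein-coding genes. Their windows share 175 kb. The 4 lists held nearly the same number of intervals here, 15 in limb EGFP+, 16 in limb EGFP−, 16 in trunk EGFP+ and 16 in trunk EGFP− cells. Of these, 9, 10, 9 and 11 were at promoters of other genes, namely Crabp2, Gpatch4, Hdgf, Iqgap3, Isg20l2 with Mettl25b, Mrpl24, Naxe and Nes. The distal intervals were 6, 6, 7 and 5, and 3 of the 10 regions were EGFP+-only. Shared by the pair were 13, 13, 12 and 14 intervals, of which 6, 5, 6 and 5 were distal. Regions in both fractions were 6 of 10, beside 22.8% over the genome. Bcan had 6 of them in its window, a number reached by 4.56% of genes, and Hapln2 had 5, reached by 7.26%, where neighbouring genes share regions. EGFP+-only regions numbered 3 at each, as many as at 28.9% of genes.

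The strongest distal region of this locus lay between Crabp2 and Nes, 42.1 kb downstream of the Bcan start (chr3:87867302-87868319), and was present in all 4 lists. It had 46 reads in limb EGFP+ (33.7 to 61.4), 72 in limb EGFP− (56.3 to 90.7), 53 in trunk EGFP+ (39.7 to 69.3) and 49 in trunk EGFP− cells (36.3 to 64.8). The counting intervals overlapped between fractions in both tissues. The next strongest was in an intron of Crabp2, a retinoic acid binding protein gene (chr3:87856919-87857699), with 45 reads in limb EGFP+, 69 in limb EGFP− and 52 in trunk EGFP− cells and no peak in trunk EGFP+ cells. At Bcan itself 1 region was called, at the 3′ end of the gene over an exon (chr3:87894422-87895532), with 21 reads in limb EGFP+, 25 in limb EGFP− and 18 in trunk EGFP− cells. The only EGFP−-only region was in an intron of Nes, the nestin gene (chr3:87879570-87879971, 16 reads in limb EGFP− cells). The Nes promoter had a peak in both EGFP− lists, with 19 and 25 reads, and in neither EGFP+ list. The region shared by all 4 lists is shown as a contrast to those of Acan, at chr3:87867878-87868177 (plus strand, GRCm39), with capitals for a SOX half-site.
Bcan downstream 42.1 kb: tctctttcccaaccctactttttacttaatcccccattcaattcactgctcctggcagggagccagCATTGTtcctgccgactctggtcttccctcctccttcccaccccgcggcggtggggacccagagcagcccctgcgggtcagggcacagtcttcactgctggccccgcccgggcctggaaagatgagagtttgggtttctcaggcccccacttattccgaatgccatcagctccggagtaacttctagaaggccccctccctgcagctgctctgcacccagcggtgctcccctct

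Ncan and Hapln4 are on opposite strands and overlap by 4608 bp, among 11 other protein-coding genes. Of 14 intervals in limb EGFP+, 11 in limb EGFP−, 12 in trunk EGFP+ and 13 in trunk EGFP− cells, 12, 8, 9 and 9 were at promoters of other genes. These were the promoters of Borcs8 with Mef2b and Rfxank, Gatad2a, Mau2 with Sugp1, Nr2c2ap, Slc25a42 and Tmem161a, each with peaks in all 4 lists. At further Mef2b starts 2 intervals were called in limb EGFP+ cells alone, with 10 and 12 reads. The locus had 7 distal regions, 2 EGFP+-only, 3 EGFP−-only and 2 in both fractions. Without the trunk EGFP− list these were 3, 1 and 1. Of the 7 regions, 1 lay in both windows, in an intron of Ncan 1.29 kb from its start (chr8:70572161-70572453), and it had 9 reads in trunk EGFP− cells and no peak elsewhere. It was also the only region inside either gene. The strongest distal region was far from both genes, in an intron of Gatad2a (chr8:70447861-70448559), with 38 reads in limb EGFP+, 25 in limb EGFP−, 33 in trunk EGFP+ and 39 in trunk EGFP− cells. The limb EGFP+ peak there reached into a Gatad2a promoter window. Ncan had 0 EGFP+-only regions in its window and Hapln4 had 2, a number reached by 42.5% of genes.

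**Figure D5:**
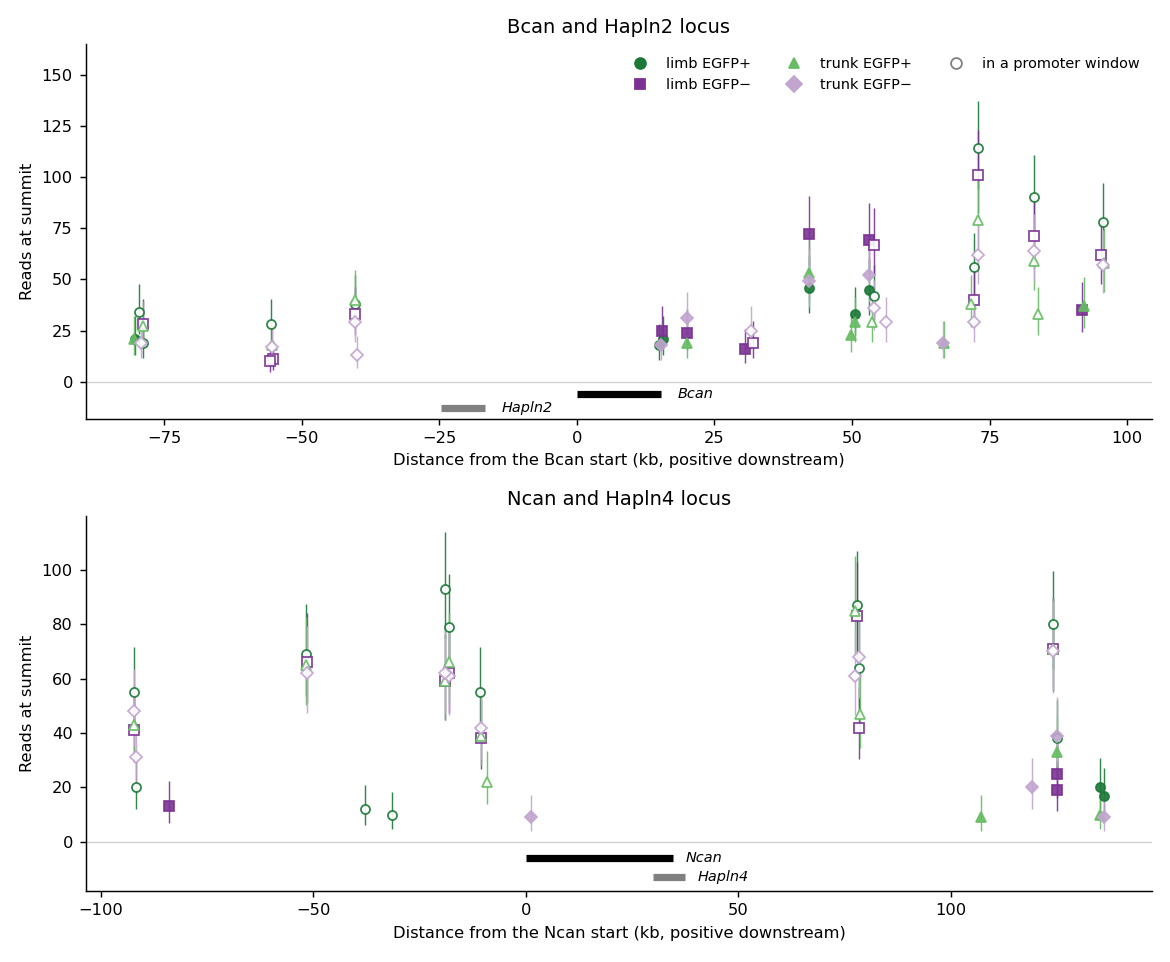
Reads at the summit (y axis, with exact 95% Poisson intervals) of each H3K27ac interval at the Bcan and Hapln2 locus and at the Ncan and Hapln4 locus against distance from the Bcan or Ncan start (x axis, kb), with open symbols for intervals in a promoter window. Most points are open and belong to promoters of neighbouring genes, most of which have points of all 4 lists, and 1 filled point with 9 reads lies in Ncan.

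Among 26 genes whose products make, bind or cleave hyaluronan or lecticans, 14 had a promoter peak in limb EGFP+ (54.0% of all genes), 16 in limb EGFP− (51.2%), 12 in trunk EGFP+ (52.2%) and 15 in trunk EGFP− cells (52.2%). In all 4 lists 11 had one (47.1% of all genes), 7 had none (41.7%), 1 had one in both EGFP− lists and neither EGFP+ list (0.777%) and 0 had one in both EGFP+ lists and neither EGFP− list (1.44%). Counts of 1 and 0 of 26 genes are within 1 gene of these low shares. For the partner genes named here and in the next paragraph, reads were not set beside local background. Whether the summits of the lists lie in the same peak was not examined. More reads thus do not show more enrichment over background. Has2, the main hyaluronan synthase of the embryo, had 93 reads in limb EGFP+, 49 in limb EGFP−, 53 in trunk EGFP+ and 29 in trunk EGFP− cells. Tnc, whose product tenascin-C is a ligand of the lectin-like domain, had 54, 24, 52 and 19 reads in the same order, and Fbln2, another such ligand, had 55, 31, 55 and 18. These 3 had more reads in the EGFP+ list of each tissue. So did the protease gene Adamts1, with 74, 73, 68 and 55 reads, and Hyal3, with 116, 102, 77 and 75. Hyal2 had fewer in the EGFP+ lists, with 77, 82, 59 and 68. The other ligands of the lectin-like domain did not have more reads in EGFP+ cells. Fbln1 had 29, 33, 26 and 37 reads, Fbn1 had 47, 53, 53 and 53, and Tnr had no promoter peak.

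Other partners had more reads in EGFP− cells. Cd44, the main cell surface receptor for hyaluronan, had 15 reads in limb EGFP+, 29 in limb EGFP−, 17 in trunk EGFP+ and 41 in trunk EGFP− cells. Tnfaip6, a hyaluronan-binding protein gene, had 21 and 53 reads in the limb fractions, no peak in trunk EGFP+ and 43 reads in trunk EGFP− cells. Adamts4, which encodes a protease that cleaves aggrecan, was the gene with a promoter peak in both EGFP− lists and neither EGFP+ list. It had 50 reads in limb and 53 in trunk. Has1, Lyve1 and Adamts9 had a promoter peak in limb EGFP− cells alone, with 12, 13 and 25 reads. Adamts15 had one in trunk EGFP− cells alone, with 29 reads, and Has3 in limb EGFP+ cells alone, with 8. Adamts5, the other main aggrecan-cleaving protease, had no promoter peak in any list. Beside this, of the 5 connective tissue markers Dcn and Dpt also had a promoter peak in both EGFP− lists and in neither EGFP+ list, Kera had one in limb EGFP+ cells alone, Col3a1 had one in all 4 lists and Tnmd had none. Their part in these values was not tested. In sorted populations, fewer cells with the mark and less of the mark per cell cannot be told apart.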

How the data were processed

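H3K27ac ChIP-seq was analysed in 4 populations with 1 library each, limb EGFP+, limb EGFP−, trunk EGFP+ and trunk EGFP−. The authors drew equal numbers of reads per library, trimmed adapters (cutadapt 1.18 in the submitters' processing notes), mapped to GRCm39 (Bowtie2 2.3.5.1), filtered with SAMtools and called peaks separately in each library with MACS2 2.2.7.1, extending reads to 200 bp. The notes used here name no input control. ChIP-seq reads were of more than 1 length and protocols name more than 1 sonicator, without assignment to libraries. The deposited score was not used. The deposited fold is a ratio, summit reads plus 1 over local background plus 1, which lowers it most where the background is low. The deposited −log10 p and −log10 q are those of the authors' MACS2 run, the latter adjusted per library.

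Summits of the same interval were joined, and values are those of the summit with the highest −log10 p. Reads and background were solved from the fold and the Poisson −log10 p, with a largest error of 0.000485 in −log10 p. Promoter windows used 67388 coding transcript starts of the GENCODE annotation. Overlap meant at least 1 bp. A list counted as present in a region when any of its intervals, also one reaching a promoter, overlapped it. Distances run from the summit of highest −log10 p to the annotated gene start. Named regions were up to 8 per locus by −log10 p, the top EGFP−-only region, and for Hapln3 and Ncan those inside the gene. The regions inside Hapln3 and Ncan, 27.3 kb inside Acan, 41.2 kb upstream of Hapln3 and 41.6 kb inside Vcan were chosen after their values were seen, as were the partner genes named. The members and gene lists were chosen with earlier results of these data known. Motifs were searched within 150 bp of the summit. Calls and read recovery were tested on simulated data, where 3000 of 3000 regions and 2000 of 2000 summits were recovered. The simulated intervals of a region shared a common centre, and the summits were made with the same formulas that were then solved. The result thus checks the code alone, and not the calls at split or partly overlapping intervals. Shares have Clopper-Pearson and reads exact Poisson intervals at the 95% level. The scripts ran under Python 3.11.15 with scipy 1.17.1 for the intervals, pandas 2.3.3 and numpy 2.4.6 for the tables, and matplotlib 3.10.9 for the plots.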

Additional observations from a re-analysis of the deposited data

Results flagged for a closer look

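At 2 distal regions with a peak in all 4 lists, EGFP+ and EGFP− reads differed in opposite directions in limb and trunk, and with 1 library per population the difference was not tested. At the region between Crabp2 and Nes in the Bcan and Hapln2 locus, EGFP+ minus EGFP− was -26 reads in limb and 4 reads in trunk. At the Gatad2a intronic region of the Ncan and Hapln4 locus, where the limb EGFP+ peak reached into a promoter window, it was 13 reads in limb and -6 reads in trunk. In each case the counting intervals of the fractions overlapped.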

How the results depend on the processing

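The number of EGFP+-only distal regions was counted again for each locus. Around Acan and Hapln3 (20) it was 11 with a fold of at least 4, 13 with each list cut to its top 20000 intervals by −log10 p, 11 with intervals within 500 bp joined and 32 with a window of 200 kb. Around Vcan and Hapln1 (12) it was 4 with a −log10 q of at least 5, 4 with the fold limit and 3 with the top 20000. Around Bcan and Hapln2 (3) it was 1, 0, 5, 1, 1 and 6 with the fold limit, the top 20000, joining only where 50% of the shorter interval was covered, joining across gaps, a window of 50 kb and a window of 200 kb. Around Ncan and Hapln4 (2) it was 1, 1, 1, 0, 4 and 5 with lists cut to the shortest (30716 intervals), the top 20000, joining, a window of 50 kb, a window of 200 kb and no promoter filter. In all of these settings the count around Acan and Hapln3 was the highest of the 4 loci. Member promoters marked in EGFP+ but not EGFP− cells (1) fell to 0 with the fold limit. Intervals shared by a pair, summed over the 4 lists, moved mostly with the window. They were 1, 0, 12 and 6 with a window of 50 kb and 63, 9, 97 and 79 with one of 200 kb, against 31, 0, 52 and 28, with the loci in the order above. Around Acan and Hapln3 they were 17 with the −log10 q limit, 10 with the fold limit and 13 with the top 20000, and around Bcan and Hapln2 they were 20 with the fold limit and 30 with the top 20000. With windows from every coding start, 5 were shared by Vcan and Hapln1. Leaving out the trunk EGFP− list, chosen after seeing the data, gave 20, 12, 4 and 3 EGFP+-only regions for the loci in the same order and took the EGFP−-only regions from 3 to 1 around Ncan and Hapln4 and from 1 to 0 around Vcan and Hapln1.

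No paired analysis was possible because each population was 1 library. Depth limits the weakest calls, which rest on 7 or 8 reads, and a missing peak does not show a missing mark.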
